A study of Mus musculus with 20 samples.

Results

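Endothelial cells line blood and lymphatic vessels, and the 35 genes described here are markers of these cells together with secreted factors that act on them. They were chosen by name from a count table of 24062 genes, as 25 blood vessel genes, 4 lymphatic genes and 6 ligand genes, and all 35 had enough counts to be tested. The counts come from bulk RNA sequencing of 20 nerve tumors from C57BL/6J mice. In all of them floxed Nf1 is removed by DhhCre, a recombinase that the desert hedgehog promoter switches on in Schwann cells and their precursors. The 12 neurofibroma libraries were labelled Nf1fl/fl; DhhCre. The 4 paraspinal tumor libraries and the 4 GEM-PNST libraries (the labels' name for nerve sheath tumors of genetically engineered mice) were labelled Ink4a/Arf+/-; Nf1fl/fl; DhhCre, so that they also carried 1 disrupted copy of a tumor suppressor locus. The paraspinal libraries are 2 of subgroup 2 and 2 of subgroup 1, which the labels call sub-clusters, so these subgroups may have been drawn from expression. All groups share the loss of Nf1 in Cre-expressing cells and no library is of a nerve without a tumor. No drugs were given, and the age of the mice and whether each library came from its own animal are not given in the sources used here.

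Vessels grow when VEGF ligands bind receptor kinases on endothelial cells: Kdr carries the main growth signal of Vegfa, Flt1 binds Vegfa and Vegfb and acts largely as a trap, and Flt4 binds Vegfc and drives lymphatic growth. Angiopoietins act through the receptor Tek, with Angpt1 keeping vessels stable and Angpt2 mostly opposing it, while Dll4 and Notch signaling limit how many cells sprout. Apelin (Apln) and its receptor Aplnr act beside these in sprouting and vessel size, and a nerve carries its own vessels inside the endoneurium, where endothelial tight junctions form a barrier between blood and nerve.

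Of the 35 genes, 20 have an entry in the RefSeq promoter table (build GRCm38.p6), with 26 windows of the 250 bases before a transcript start. Transcription factors of the ETS family, among them the members Erg and Fli1, bind the core GGAA and are known regulators of many endothelial genes, so the windows were searched for the forms CCGGAA and CAGGAA on both strands. These 2 forms cannot match at the same position. Of the member windows 12 (46.2%) held either form, as did 10 of the 17 blood vessel windows (58.8%) and 11517 of the 32851 windows in the table (35.1%). The hypoxia response core ACGTG, searched on both strands, was in 2 of the member windows (7.7%) and in 5444 of all windows (16.6%). The promoters of Cldn5 (chr16:18776597-18776846, plus strand), Rgs5 (chr1:169655251-169655500, plus strand) and Apln (chrX:48034854-48035103, minus strand) are shown as examples, 2 of genes that were higher and 1 of a gene that was lower in both comparisons with neurofibroma, in windows that no RefSeq gene overlaps. Tie1, Eng, Pdpn and 1 window of Egfl7 (chr2:26580833-26581082, plus strand) met the same conditions and are not printed. Capitals mark the ETS cores, written as TTCCTG or TTCCGG where the match is on the other strand.
Cldn5: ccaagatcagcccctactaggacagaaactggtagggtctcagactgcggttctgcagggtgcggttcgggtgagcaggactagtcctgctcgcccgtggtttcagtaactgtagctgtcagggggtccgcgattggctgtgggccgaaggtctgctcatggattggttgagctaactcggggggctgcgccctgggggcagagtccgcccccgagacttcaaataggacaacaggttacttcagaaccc
Rgs5: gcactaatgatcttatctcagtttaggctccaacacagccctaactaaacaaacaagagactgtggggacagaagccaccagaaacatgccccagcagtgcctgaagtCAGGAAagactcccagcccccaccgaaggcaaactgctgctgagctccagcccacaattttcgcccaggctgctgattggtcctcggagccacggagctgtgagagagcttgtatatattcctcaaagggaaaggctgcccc
Apln: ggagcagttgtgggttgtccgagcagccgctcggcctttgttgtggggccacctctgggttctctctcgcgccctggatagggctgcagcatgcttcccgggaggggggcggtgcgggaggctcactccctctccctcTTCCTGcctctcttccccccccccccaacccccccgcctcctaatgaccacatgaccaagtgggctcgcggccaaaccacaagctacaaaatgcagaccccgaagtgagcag
The Rgs5 and the Apln window each held 1 CAGGAA core, and the Cldn5 window held none of the forms searched. Of the windows not printed, that of Tie1 held 1 CAGGAA core and that of Egfl7 held 2. That of Pdpn held 2 ACGTG cores and that of Eng none of these forms. A match describes these letters only and shows neither binding nor its absence.

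Levels are CPM, read counts scaled by library total and by a TMM factor computed over all 20 libraries. Each neurofibroma library held 9900759 to 17594164 counts, each paraspinal library 18474071 to 24314222 and each GEM-PNST library 16282605 to 22218382, and the least covered member, Prox1, had 251 counts over the 20 libraries. The neurofibroma libraries were sequenced in 2 runs of 6 and the other 8 libraries together in a separate run, so against neurofibroma the stage, the Ink4a/Arf genotype and the run cannot be told apart. Nf1 itself had 217.6 to 275.9 CPM in neurofibroma, 35.87 to 89.88 CPM in paraspinal and 22.51 to 30.71 CPM in GEM-PNST libraries, though counts over the whole gene do not check the deletion. The GEM-PNST libraries were unlike each other. In libraries 1 to 4, a list of 13 leukocyte and macrophage markers summed to 12750, 2091, 4877 and 5489 CPM, against 444 to 1942 CPM in paraspinal libraries, and 10 Schwann cell markers summed to 5.83, 5.19, 1225 and 32.06 CPM, against 5394 to 10060 CPM. GEM-PNST library 1 was also low in fibroblast transcripts (228.7 CPM over 12 markers, 4824 to 24550 CPM in the other 3). Library 3 held 28060 CPM of the salivary gland gene Bpifa2. The sum of 12 sensory neuron markers was 37.07 to 486.1 CPM in GEM-PNST, 3302 to 4384 in paraspinal and 36.11 to 10140 in neurofibroma libraries. That of 8 skeletal muscle markers was 37.43 to 983.7, 15.85 to 1365 and 20.01 to 2074 CPM in the same order. In bulk tissue a lower level may mean fewer endothelial cells or less RNA per endothelial cell, and these cannot be told apart.

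Transcripts that define endothelial cells were present in every library. Pecam1, an adhesion molecule of endothelial junctions, had 11.2, 35.8 and 134 CPM (lowest, median and highest) in neurofibroma, 63.95 and 64.97 CPM in paraspinal subgroup 2, 42.5 and 20.4 CPM in subgroup 1, and 10.9, 16.8, 92.8 and 148.8 CPM in GEM-PNST libraries 1 to 4. Cdh5, the cadherin of those junctions, had 20.65, 70.4 and 134.9 CPM in neurofibroma, 58.9 and 63.4 CPM in subgroup 2, 69.5 and 30.4 CPM in subgroup 1, and 6.17, 14.2, 78.5 and 154.9 CPM in GEM-PNST. For both genes the GEM-PNST libraries held the lowest and the highest value of the series, and the stages overlapped. The mean log2 CPM of the 25 blood vessel genes showed the same spread: 2.56 to 4.84 over the neurofibroma libraries, 4.54 and 4.35 in subgroup 2, 4.02 and 3.29 in subgroup 1, and 2.53, 2.54, 4.77 and 5.38 in GEM-PNST. Neurofibroma library 12 was the highest neurofibroma library for 19 of the 25 genes and library 11 the lowest for 17. Library 2 of subgroup 1 was the lowest paraspinal library for 19 of the 25. GEM-PNST library 4 was the highest of its stage for 17, and library 1 the lowest for 16.

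**Figure D1:**
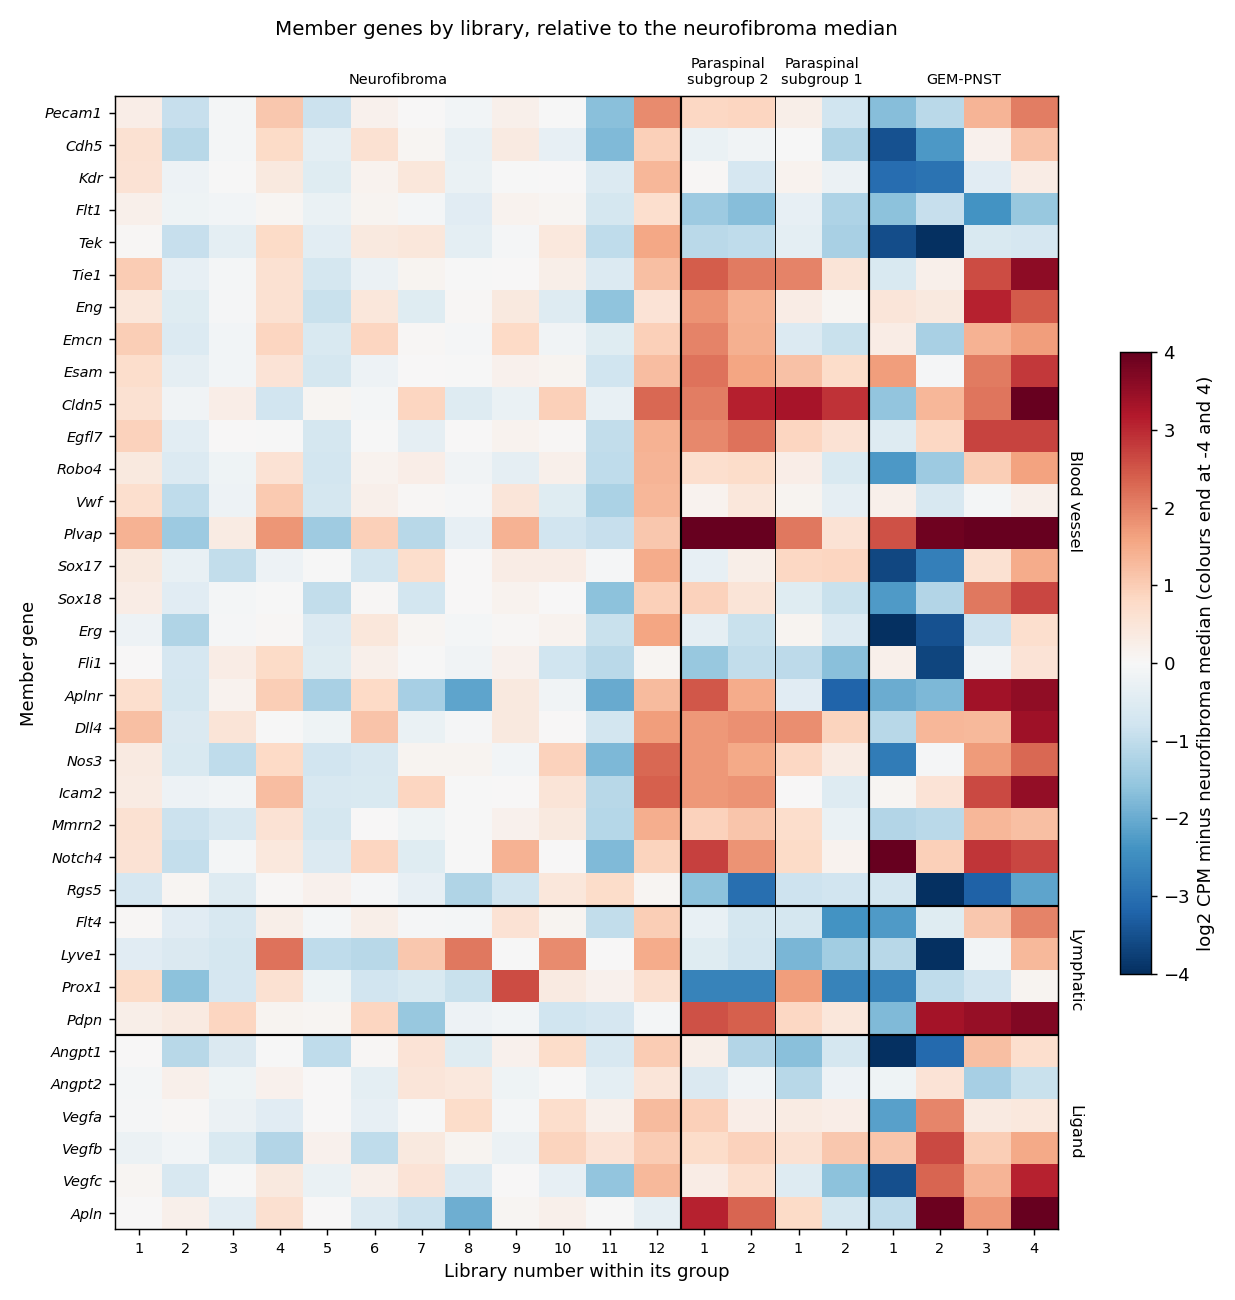
Each row is a member gene, grouped as blood vessel, lymphatic and ligand genes, and each column a library (NF, neurofibroma; PS 2 and PS 1, paraspinal subgroups 2 and 1; GEM, GEM-PNST); color gives the log2 difference from the gene's neurofibroma median, higher in red and lower in blue. GEM-PNST libraries 3 and 4 are mostly red and libraries 1 and 2 mostly blue over the blood vessel genes, and neurofibroma library 12 is red for all 25 of them.

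Per kilobase of exon, the highest blood vessel levels in neurofibroma were those of Cdh5 (median 16.75 CPM per kb) and Rgs5 (16.56). In paraspinal tumors Cldn5 (23.92 CPM per kb) and Plvap (18.56) stood above Cdh5 (14.55). In GEM-PNST the order was Plvap (49.9 CPM per kb), Eng (22.09), Egfl7 (17.67), Sox18 (14.71), Esam (13) and Cdh5 (11.03), though neighbors in it overlapped in range over the 4 libraries. Pdpn and Vegfb were among the higher of the lymphatic and ligand genes at each stage, with medians of 7.57 and 10.56 CPM per kb in neurofibroma, 26.7 and 18.78 in paraspinal and 80.43 and 26.5 in GEM-PNST. The lowest neurofibroma medians were those of Prox1 (0.0809 CPM per kb) and Apln (0.301).

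Paraspinal and neurofibroma libraries were compared to ask how vessel transcripts differ between these tumor stages. Plvap, Cldn5, Apln, Pdpn, Tie1, Notch4, Egfl7, Esam, Dll4 and Eng were higher in paraspinal tumors, and Lyve1, Rgs5, Fli1, Tek, Flt1, Flt4 and Angpt2 were lower, while the general endothelial markers Pecam1 and Cdh5 were not called by edgeR. By edgeR's quasi-likelihood test, with Benjamini-Hochberg adjustment over all genes, 17 of the 35 members passed an adjusted p of 0.05, which 59.5% of all genes did, so the number called is no larger than the background gives. Of these 10 were higher (30.3% of all genes were) and 7 lower (29.3%). The median log2 fold change of the 35 was 0.26, against -0.01 over all genes, and no member separated the stages without overlap, as 36.5% of all genes did. Of the 25 blood vessel genes 8 were higher and 4 lower. With all 20 libraries in 1 fit edgeR called 10 members, without Eng, Dll4, Notch4, Apln, Tek, Flt4, Lyve1 and Angpt2 and with Prox1 lower. In that fit 53.9% of all genes were called.

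GEM-PNST and neurofibroma libraries, which share their neurofibroma samples with the comparison above, differed in 18 members (73.3% of all genes were called). Here 15 members were higher, where 35.4% of all genes were, and 3 were lower, where 37.9% were. The higher genes were Apln, Plvap, Notch4, Pdpn, Aplnr, Tie1, Cldn5, Eng, Vegfc, Egfl7, Icam2, Esam, Vegfb, Sox18 and Dll4, and the lower ones were Rgs5, Tek and Flt1. The median log2 fold change of the 35 was 0.63, against -0.12 over all genes. Among the blood vessel genes 11 were higher and 3 lower. Between GEM-PNST and paraspinal libraries, which share genotype label and run, 10.9% of all genes were called (3.07% higher and 7.82% lower) and none of the 35 members was, none of them with an unadjusted p under 0.05 by edgeR. DESeq2 and limma-voom also called none, with 2 and 1 members under an unadjusted 0.05, where they called 29.6% and 17.2% of all genes. No member separated the 2 stages, as 27.6% of all genes did. The median log2 fold change of the 35 was 0.41 in that comparison (0.04 over all genes), with 24 of 35 above 0.

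**Figure D2:**
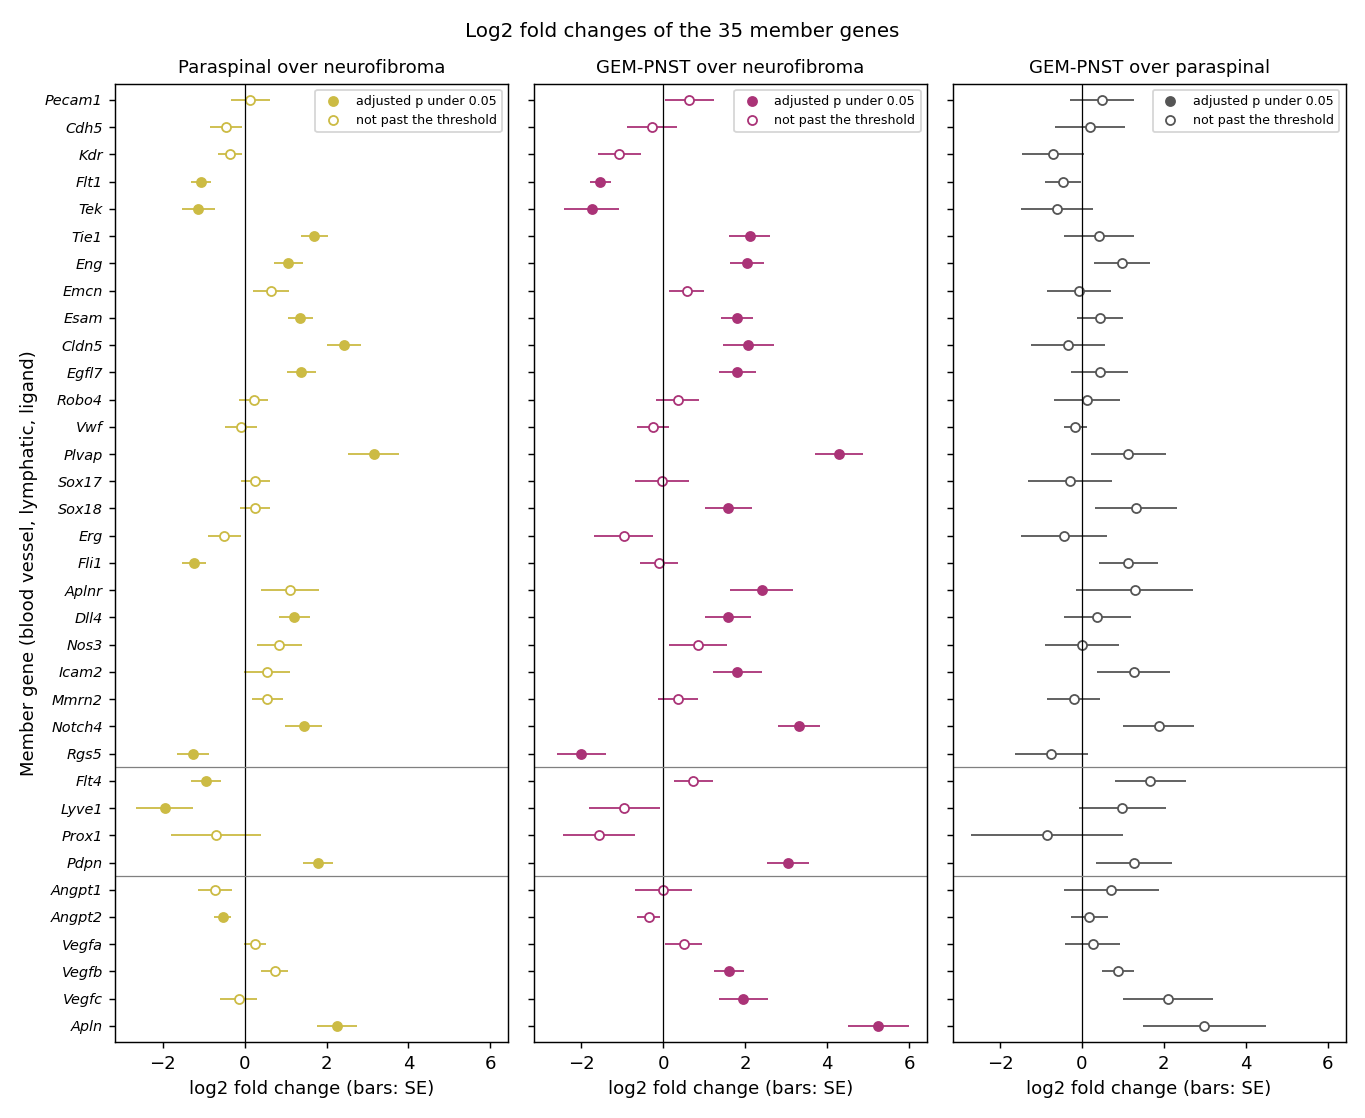
Points are log2 fold changes of the 35 members with bars of 1 standard error in 3 panels, paraspinal over neurofibroma, GEM-PNST over neurofibroma and GEM-PNST over paraspinal; filled points passed the adjusted threshold. Plvap and Apln lie far to the right and Rgs5, Tek and Flt1 to the left in both comparisons with neurofibroma. No point is filled for GEM-PNST against paraspinal.

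The exon GC content and length of a gene moved with these differences. Over 15767 genes, the Spearman correlation of log2 fold change with GC content was 0.56 in paraspinal against neurofibroma, 0.35 in GEM-PNST against neurofibroma and only 0.06 in GEM-PNST against paraspinal. Over the 35 members it was 0.63, 0.55 and 0.23. Members called higher in paraspinal tumors had a median GC content of 57.22%, and those called lower 47.08%. In GEM-PNST the medians were 57.05% and 47.08%. With a smooth trend over length and GC removed in each library, 8 members were called in paraspinal against neurofibroma, 5 of them among the 17, and 10 in GEM-PNST against neurofibroma, 9 of them among the 18. Of all genes 48% and 69% were called in these fits. Emcn, Pdpn and Apln were then higher and Flt1, Sox18, Fli1, Flt4 and Vegfb lower in paraspinal tumors. Tie1, Emcn, Esam, Plvap, Aplnr, Notch4, Pdpn, Vegfc and Apln were then higher and Rgs5 lower in GEM-PNST. This trend, like the run, cannot be told apart from the stage.

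Plvap, which forms the diaphragms of leaky, fenestrated vessels and is scarce in barrier endothelium (chromosome 8, 71497765 to 71511752 on GRCm38), differed most among the blood vessel genes. It had 1.19, 3.59 and 12.2 CPM (lowest, median, highest) in neurofibroma, 101.1 and 58.3 CPM in paraspinal subgroup 2, 15.5 and 5.32 CPM in subgroup 1, and 21.2, 53.9, 176.1 and 144.4 CPM in GEM-PNST libraries 1 to 4. All 4 GEM-PNST libraries lay above the highest neurofibroma library, and 3 of the 4 paraspinal libraries did. The log2 fold change was 4.29 ± 0.59 (SE) for GEM-PNST against neurofibroma (edgeR adjusted p = 6.08e-06) and 3.15 ± 0.63 for paraspinal against neurofibroma (edgeR adjusted p = 0.000352), and 2.38 in the second without library 1 of subgroup 2. With the length and GC trend removed, the paraspinal value was 1.36 and no longer called (adjusted p = 0.084).

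Cldn5, the tight junction claudin of barrier endothelium, had 2.34, 4.10 and 20.5 CPM in neurofibroma, 17.2 and 36.4 CPM in paraspinal subgroup 2, 41.2 and 31.3 CPM in subgroup 1, and 1.29, 10.4, 18.3 and 69.9 CPM in GEM-PNST. The paraspinal libraries lay above 11 of the 12 neurofibroma libraries, whereas GEM-PNST library 1 lay below all of them. Cldn5 rose in paraspinal tumors (log2 fold change 2.42 ± 0.42, edgeR adjusted p = 9.54e-05) and in GEM-PNST (2.08 ± 0.63, adjusted p = 0.00703), where the call rested on library 4 (0.77, adjusted p = 0.287 without it). Both calls were lost with the length and GC trend removed, at 1.03 in paraspinal tumors (adjusted p = 0.0679) and 0.53 in GEM-PNST (adjusted p = 0.505). Tie1, an endothelial receptor that works with Tek, had 3.86, 6.44 and 14.96 CPM in neurofibroma, 34.85 and 27.9 CPM in subgroup 2, 25.9 and 9.18 CPM in subgroup 1, and 4.20, 7.36, 40.15 and 77.9 CPM in GEM-PNST. GEM-PNST libraries 1 and 2 and library 2 of subgroup 1 lay within the neurofibroma range and the other 5 libraries above it. Its log2 fold change was 1.70 ± 0.33 in paraspinal against neurofibroma (edgeR adjusted p = 0.000261) and 2.11 ± 0.50 in GEM-PNST against neurofibroma (adjusted p = 0.00127), or 1.2 without GEM-PNST library 4 (adjusted p = 0.0416). The paraspinal value was 0.57 with the trend removed, where the call was lost (adjusted p = 0.183).

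Notch4, a Notch receptor of endothelial cells, had 1.81, 6.44 and 17.3 CPM in neurofibroma, 43.2 and 22.5 CPM in paraspinal subgroup 2, 11.01 and 7.09 CPM in subgroup 1, and 204.1, 12.7, 47.1 and 41.4 CPM in GEM-PNST. GEM-PNST library 1 was the highest of the series for Notch4. It was also highest for Gpsm3, the gene next to Notch4 on chromosome 17, with 427.2 CPM against 131.3 CPM or less in every other library, and for the leukocyte gene Ptprc (300.2 CPM). Their part in the Notch4 value was not tested. Notch4 rose in GEM-PNST (log2 fold change 3.31 ± 0.52, edgeR adjusted p = 2.67e-05), by 2.13 without library 1, and in paraspinal tumors (1.44 ± 0.46, adjusted p = 0.0124), by 0.81 without library 1 of subgroup 2, where it was no longer called (adjusted p = 0.174). Nor was it called in paraspinal tumors with the length and GC trend removed (0.27, adjusted p = 0.704).

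Aplnr, the apelin receptor, had 1.36, 6.37 and 15.3 CPM in neurofibroma, 36.1 and 17.8 CPM in paraspinal subgroup 2, 4.55 and 0.576 CPM in subgroup 1, and 1.49, 1.73, 66.6 and 74.8 CPM in GEM-PNST. High values were thus limited to subgroup 2 and to GEM-PNST libraries 3 and 4. It was called in GEM-PNST against neurofibroma (log2 fold change 2.40 ± 0.76, edgeR adjusted p = 0.00952) but not without library 3 (1.92, adjusted p = 0.0512) or library 4 (1.77, adjusted p = 0.0712), and in paraspinal against neurofibroma its value was 1.11 ± 0.70 (adjusted p = 0.186). The difference between GEM-PNST and paraspinal was 1.29 ± 1.43 (adjusted p = 0.551).

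**Figure D3:**
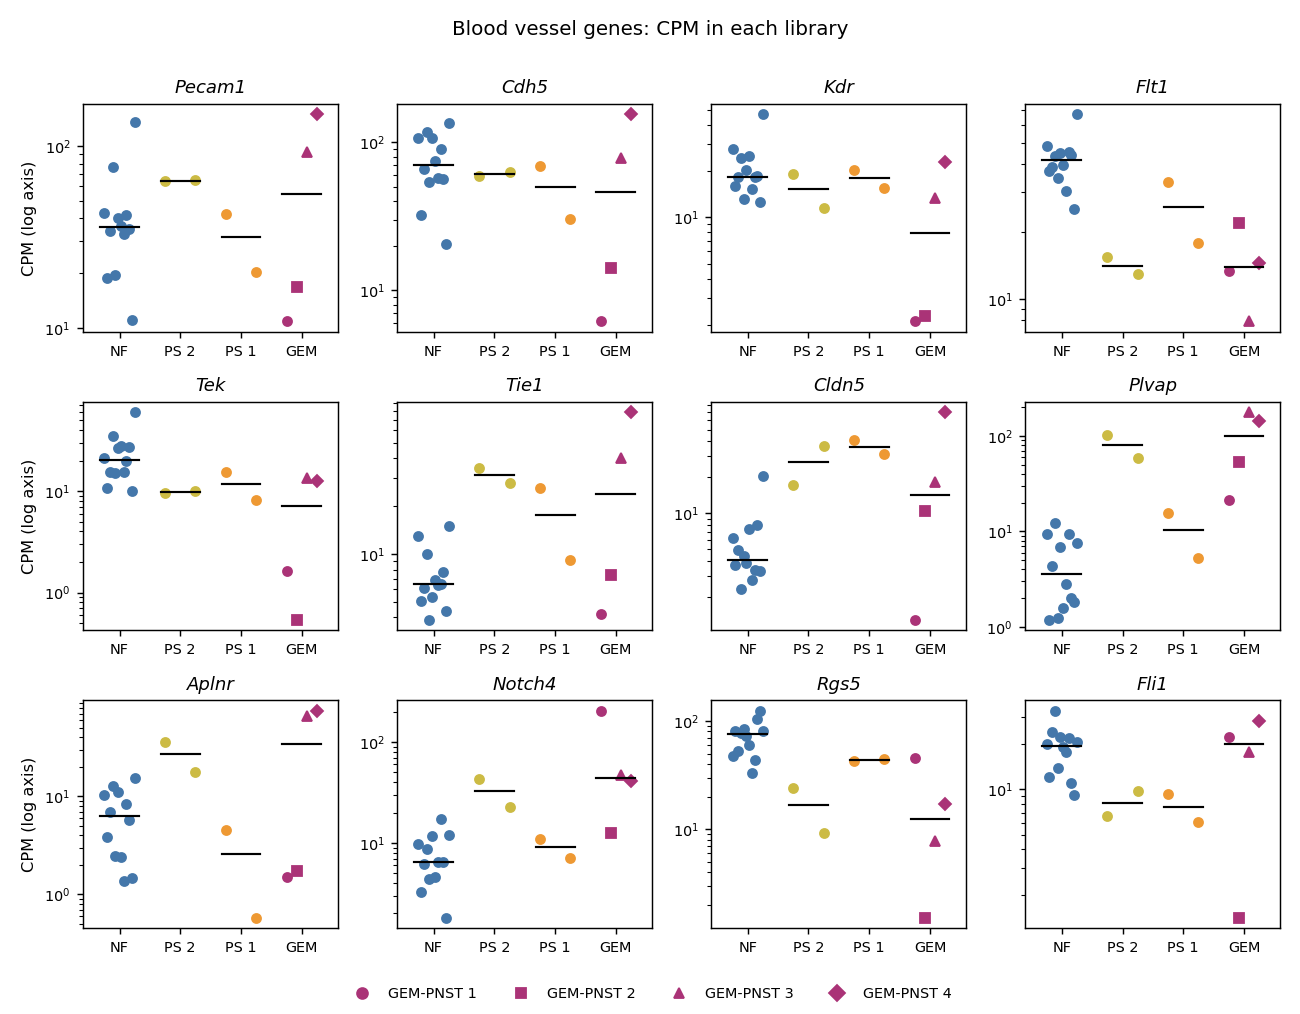
CPM of 12 blood vessel members on a log axis, with 1 point per library, in neurofibroma (NF), paraspinal subgroup 2 (PS 2), subgroup 1 (PS 1) and GEM-PNST (GEM); black bars are medians and the symbol tells the GEM-PNST library. Plvap runs from 1.19 to 12.2 CPM in neurofibroma and from 21.2 to 176.1 CPM in GEM-PNST, while Pecam1 and Cdh5 spread over the neurofibroma range and beyond it in GEM-PNST.

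Other members rose less or less evenly. In both comparisons with neurofibroma edgeR called Eng, a co-receptor for BMP and TGF-beta ligands, Esam, a junction adhesion molecule, Egfl7, a secreted endothelial matrix protein, and Dll4, the Notch ligand of sprouting tip cells. Their log2 fold changes ran from 1.07 to 1.38 in paraspinal tumors and from 1.58 to 2.05 in GEM-PNST. Eng ranged from 34.25 to 218.1 CPM in GEM-PNST, 27.3 to 90.8 CPM in paraspinal and 8.43 to 39.4 CPM in neurofibroma libraries. It was no longer called in paraspinal tumors without library 1 or 2 of subgroup 2 (log2 fold change 0.71 and 0.94, adjusted p = 0.127 and 0.0564), and its GEM-PNST value was 1.45 without library 3. Dll4 was lost in GEM-PNST without library 4 (0.43, adjusted p = 0.487). With the length and GC trend removed none of the 4 was called in paraspinal tumors, with -0.13 for Eng, 0.64 for Esam, 0.20 for Egfl7 and 0.23 for Dll4. In GEM-PNST Esam was then still called, but Eng (0.97, adjusted p = 0.0555), Egfl7 (0.70, adjusted p = 0.189) and Dll4 (0.69, adjusted p = 0.295) were not. Exons of Eng, Egfl7, Dll4, Sox17, Nos3 and Angpt1 overlap those of other genes and no strand setting is given, so their counts are uncertain.

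In GEM-PNST against neurofibroma edgeR also called Sox18, a transcription factor of vessel and lymphatic development (log2 fold change 1.59 ± 0.57, adjusted p = 0.0201), and Icam2, an adhesion molecule for leukocytes (1.81 ± 0.60, adjusted p = 0.0121). Both calls rested on library 4, without which the values were 0.81 and 1.01 (adjusted p = 0.25 and 0.166), and Sox18 was also lost without library 3 (1.31, adjusted p = 0.0795). With the length and GC trend removed both calls were lost, at -0.02 for Sox18 (adjusted p = 0.984) and 0.81 for Icam2 (adjusted p = 0.265). Neither gene was called in paraspinal against neurofibroma, but GEM-PNST did not differ from paraspinal beyond its error either (1.32 ± 1.00, adjusted p = 0.374, for Sox18 and 1.26 ± 0.88, adjusted p = 0.337, for Icam2).

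Flt1, the VEGF trap receptor, went the other way. It ranged from 7.91 to 21.9 CPM in GEM-PNST and 12.9 to 33.5 CPM in paraspinal libraries, against 25.4 to 67.1 CPM in neurofibroma, so that GEM-PNST and neurofibroma did not overlap. It fell by 1.54 ± 0.26 on the log2 scale in GEM-PNST (edgeR adjusted p = 6.22e-05) and by 1.07 ± 0.25 in paraspinal tumors (adjusted p = 0.00157). With the length and GC trend removed the GEM-PNST value was -0.30 and the call was lost (adjusted p = 0.275). Besides Plvap, Flt1 was the only member whose GEM-PNST and neurofibroma libraries did not overlap, which 46.5% of all genes achieved. Rgs5, a signaling regulator of pericytes, the contractile cells around small vessels, ranged from 1.52 to 45.1 CPM in GEM-PNST, 9.24 to 44.1 CPM in paraspinal and 32.9 to 124.2 CPM in neurofibroma libraries. It fell by 2.00 ± 0.59 in GEM-PNST (edgeR adjusted p = 0.00604), by 3.03 without library 1. In paraspinal tumors it fell by 1.26 ± 0.38 (edgeR adjusted p = 0.0089). There the value was -0.44 and not called with the trend removed (adjusted p = 0.32). Rgs5 was highest in neurofibroma library 11 (124.2 CPM), which also had the most sensory neuron transcript (10140 CPM). The part of neurons in the Rgs5 values was not tested.

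Tek, the angiopoietin receptor, ranged from 0.541 to 13.4 CPM in GEM-PNST, 8.24 to 15.4 CPM in paraspinal and 10.1 to 59.4 CPM in neurofibroma libraries. It fell by 1.75 ± 0.67 in GEM-PNST (edgeR adjusted p = 0.0272) and by 1.13 ± 0.40 in paraspinal tumors (adjusted p = 0.0224). Its calls were weak: without GEM-PNST library 1 or 2 the adjusted p was 0.0749 and 0.0511, and without library 1 or 2 of subgroup 2 or library 2 of subgroup 1 it was 0.063, 0.0583 and 0.0661. With the length and GC trend removed neither call held (-1.35, adjusted p = 0.0755, in GEM-PNST and -0.81, adjusted p = 0.104, in paraspinal tumors). Fli1, an ETS factor of endothelial and blood cells, fell in paraspinal tumors (6.03 to 9.64 CPM, against 9.12 to 33.0 CPM in neurofibroma; log2 fold change -1.24 ± 0.29, edgeR adjusted p = 0.00153). In GEM-PNST it had 22.0, 1.41, 17.5 and 28.25 CPM and was not called (-0.11 ± 0.47, adjusted p = 0.844).

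Kdr, the main VEGF receptor, was not called by edgeR against neurofibroma. It had 12.5, 18.4 and 46.7 CPM (lowest, median, highest) in neurofibroma, 19.1 and 11.4 CPM in paraspinal subgroup 2, 20.3 and 15.5 CPM in subgroup 1, and 2.10, 2.27, 13.4 and 22.75 CPM in GEM-PNST. GEM-PNST libraries 1 and 2 lay below all other libraries, and libraries 3 and 4 within the neurofibroma range. The log2 fold change was -1.07 ± 0.53 in GEM-PNST against neurofibroma (edgeR adjusted p = 0.0758), -1.84 without GEM-PNST library 4 (adjusted p = 0.00746), and -0.36 ± 0.29 in paraspinal against neurofibroma (adjusted p = 0.299), or 0.03 there with the length and GC trend removed. In GEM-PNST against neurofibroma Kdr was called lower by DESeq2 (-1.24, adjusted p = 0.0165) and by edgeR with RLE factors (-1.24, adjusted p = 0.0417). Neither Pecam1 (0.63 ± 0.60, adjusted p = 0.355, and 0.14 ± 0.48, adjusted p = 0.82) nor Cdh5 (-0.27 ± 0.61, adjusted p = 0.698, and -0.46 ± 0.39, adjusted p = 0.316) was called by edgeR in the same comparisons. The blood vessel genes called in neither comparison with neurofibroma also included Emcn, Vwf, the guidance receptor Robo4, the arterial transcription factor Sox17, the ETS factor Erg, the nitric oxide synthase Nos3 and the vessel matrix glycoprotein Mmrn2. Their log2 fold changes ran from -0.96 (Erg, GEM-PNST against neurofibroma) to 0.85 (Nos3, in both comparisons). Vwf, the clotting factor that endothelial cells store, had 29.6 to 53.5 CPM in GEM-PNST and 36.4 to 64.2 CPM in paraspinal libraries, within the neurofibroma range of 19.2 to 118.1 CPM.

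Within the paraspinal tumors, vessel transcripts were mostly higher in subgroup 2, but edgeR called none of the 35 members between the subgroups, nor any of the 16589 genes (1991 had an unadjusted p under 0.05). With 2 libraries against 2, 19 members lay higher in both libraries of subgroup 2 and 3 lower (Flt1, Sox17 and Rgs5), against 34.6% and 34.9% of all genes, or 69.6% in either direction. Plvap had 101.1 and 58.3 CPM in subgroup 2 and 15.5 and 5.32 CPM in subgroup 1 (log2 fold change 2.94 ± 1.04, edgeR adjusted p = 0.349), and 3.90 without library 1 of subgroup 1. Emcn, a sialomucin of capillaries and veins, had 58.35 and 39.99 CPM in subgroup 2 and 10.01 and 7.93 CPM in subgroup 1 (2.45 ± 0.89, adjusted p = 0.353). These were the 2 members with an unadjusted p under 0.05 (0.0247 and 0.0271). DESeq2 called no member, with 3 under an unadjusted 0.05, and limma-voom with sample weights called 7: Eng, Emcn, Egfl7, Plvap, Icam2 and Pdpn higher and Rgs5 lower in subgroup 2. Over all genes DESeq2 called 8.19% and limma-voom 32.6%. Against neurofibroma, subgroup 2 alone gave 16 members called and subgroup 1 alone 4 (Tie1 and Cldn5 higher, Fli1 and Flt4 lower). Of all genes 60.4% and 44.9% were called in these fits, so neither count exceeds the background.

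The 4 lymphatic genes did not move together. Pdpn, a surface mucin of lymphatic endothelium that fibroblasts and other cells also make, had 4.72, 13.75 and 25.2 CPM in neurofibroma, 81.7 and 72.6 CPM in paraspinal subgroup 2, 24.4 and 19.0 CPM in subgroup 1, and 3.93, 138.7, 153.6 and 180.0 CPM in GEM-PNST. Subgroup 2 and GEM-PNST libraries 2 to 4 lay above every neurofibroma library, and GEM-PNST library 1, low in fibroblast markers, lay below them all. Pdpn rose in GEM-PNST (log2 fold change 3.05 ± 0.51, edgeR adjusted p = 4.98e-05) and in paraspinal tumors (1.79 ± 0.37, adjusted p = 0.000524). Summed fibroblast markers ran from 228.7 to 24550 CPM in GEM-PNST, 11760 to 40390 CPM in paraspinal and 2002 to 18510 CPM in neurofibroma libraries, and their part in the Pdpn result was not tested.

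Flt4, the Vegfc receptor, had 3.61, 7.35 and 14.7 CPM in neurofibroma, 5.94 and 4.49 CPM in paraspinal subgroup 2, 4.51 and 1.29 CPM in subgroup 1, and 1.42, 5.25, 15.7 and 29.3 CPM in GEM-PNST. GEM-PNST libraries 3 and 4 were the highest of the series and library 1 among the lowest. Flt4 fell in paraspinal tumors (log2 fold change -0.94 ± 0.37, edgeR adjusted p = 0.0364), but the call was lost without library 2 of subgroup 2 (adjusted p = 0.062), either library of subgroup 1 (0.0572 and 0.109) or neurofibroma library 9 (0.0521). Its value was 0.73 ± 0.48 in GEM-PNST against neurofibroma (adjusted p = 0.184).

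Lyve1, a hyaluronan receptor of lymphatic endothelium and of some macrophages, had 4.03, 8.75 and 39.6 CPM in neurofibroma, 6.23 and 5.22 CPM in paraspinal subgroup 2, 2.36 and 3.24 CPM in subgroup 1, and 4.0, 0.108, 8.06 and 21.9 CPM in GEM-PNST. Subgroup 1 lay below every neurofibroma library and subgroup 2 within their range. Lyve1 fell in paraspinal tumors (log2 fold change -1.95 ± 0.70, edgeR adjusted p = 0.023), with adjusted p = 0.0687 and 0.06 without either library of subgroup 1 and 0.0566 once the trend was removed, and its GEM-PNST value was -0.95 ± 0.87 (adjusted p = 0.334). Prox1, the transcription factor that sets lymphatic identity, had 0.132, 0.679 and 4.72 CPM in neurofibroma, 0 in both libraries of subgroup 2, 2.44 and 0 CPM in subgroup 1, and 0, 0.271, 0.348 and 0.729 CPM in GEM-PNST. The 3 paraspinal libraries and the GEM-PNST library at 0 allow up to 0.11 to 0.203 CPM (3 counts, counting error only). Prox1, whose exons overlap those of an antisense gene, was not called in any comparison by edgeR fitted on the libraries compared. DESeq2 called it lower in GEM-PNST against neurofibroma. In paraspinal against neurofibroma edgeR called it lower with all 20 libraries in 1 fit, with subgroup 2 alone and without library 1 of subgroup 1.

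The ligands were uneven in GEM-PNST. Library 1 was the lowest of its stage for 4 of the 6, library 2 the highest for 3. Apln (chromosome X, 48025146 to 48034853), which tip cells of sprouting vessels secrete, had 0.151, 0.947 and 1.54 CPM in neurofibroma, 8.96 and 5.30 CPM in paraspinal subgroup 2, 1.70 and 0.532 CPM in subgroup 1, and 0.407, 16.01, 3.43 and 111.2 CPM in GEM-PNST. Library 2 of subgroup 1 and GEM-PNST library 1 lay within the neurofibroma range and the other 6 libraries above it. Apln rose in GEM-PNST (log2 fold change 5.25 ± 0.75, edgeR adjusted p = 8.75e-06), by 2.95 without library 4, and in paraspinal tumors (2.26 ± 0.49, adjusted p = 0.000782), by 1.55 without library 1 of subgroup 2.

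Vegfc, the lymphatic growth factor, had 1.12, 3.58 and 8.90 CPM in neurofibroma, 4.43 and 5.73 CPM in paraspinal subgroup 2, 2.44 and 1.06 CPM in subgroup 1, and 0.203, 18.45, 9.40 and 31.1 CPM in GEM-PNST. GEM-PNST libraries 2 to 4 lay above all others and library 1 below them. It rose in GEM-PNST (log2 fold change 1.95 ± 0.60, edgeR adjusted p = 0.00804), a call lost without library 4 (1.30, adjusted p = 0.0882), while paraspinal against neurofibroma gave -0.15 ± 0.44 (adjusted p = 0.782). Vegfb, a ligand of Flt1, had 7.40, 16.95 and 34.4 CPM in neurofibroma, 28.2 and 32.1 CPM in subgroup 2, 26.1 and 35.55 CPM in subgroup 1, and 36.3, 106.5, 33.3 and 48.7 CPM in GEM-PNST. GEM-PNST library 1, low in Vegfa and Vegfc, was above every neurofibroma library for Vegfb, and 3 of the 4 GEM-PNST libraries exceeded every neurofibroma library. Vegfb rose in GEM-PNST (log2 fold change 1.61 ± 0.36, edgeR adjusted p = 0.000743), but its value was -0.24 with the GC and length trend removed. In paraspinal tumors it was 0.73 ± 0.32 (adjusted p = 0.0584), and -1.02 (adjusted p = 0.0237, lower) with the trend removed. Other settings called it higher there, among them edgeR against neurofibroma run A alone (1.27, adjusted p = 0.00169) and limma-voom (0.92, adjusted p = 0.0293).

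Vegfa, the main vessel growth factor, had 23.3, 31.9 and 76.3 CPM in neurofibroma, 62.3 and 38.6 CPM in paraspinal subgroup 2, 39.7 and 38.3 CPM in subgroup 1, and 6.92, 123.1, 41.0 and 42.7 CPM in GEM-PNST. GEM-PNST library 1 was the lowest and library 2 the highest of the series, and the other libraries shared a range. It was not called in GEM-PNST against neurofibroma (log2 fold change 0.50 ± 0.45, edgeR adjusted p = 0.32), where it was called without library 1 (0.87, adjusted p = 0.0346) and was -0.32 without library 2, nor in paraspinal against neurofibroma (0.25 ± 0.27, adjusted p = 0.447). Against neurofibroma run A alone edgeR called Vegfa higher in paraspinal tumors (0.64, adjusted p = 0.0103), and against run B alone its value was -0.06.

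Angpt2 had 20.8, 27.6 and 38.35 CPM in neurofibroma, 18.3 and 24.9 CPM in paraspinal subgroup 2, 12.7 and 24.2 CPM in subgroup 1, and 24.4, 40.4, 10.95 and 14.7 CPM in GEM-PNST. It fell slightly in paraspinal tumors (log2 fold change -0.54 ± 0.20, edgeR adjusted p = 0.032), which library 1 of either subgroup decided (adjusted p = 0.087 without that of subgroup 2 and 0.133 without that of subgroup 1), and was not called with the length and GC trend removed (-0.29, adjusted p = 0.233). In GEM-PNST against neurofibroma it was -0.36 ± 0.27 (adjusted p = 0.248). The GEM-PNST libraries highest for most vessel genes, 3 and 4, were the lowest of their stage for Angpt2. Angpt1, the Tek agonist, had 1.91, 4.23 and 8.59 CPM in neurofibroma, 4.96 and 1.79 CPM in subgroup 2, 1.24 and 2.53 CPM in subgroup 1, and 0.136, 0.379, 9.90 and 6.88 CPM in GEM-PNST. It was low in GEM-PNST libraries 1 and 2, highest in library 3, and not called in either comparison (0.00 ± 0.70, adjusted p = 0.999, in GEM-PNST and -0.72 ± 0.42, adjusted p = 0.156, in paraspinal tumors against neurofibroma).

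**Figure D4:**
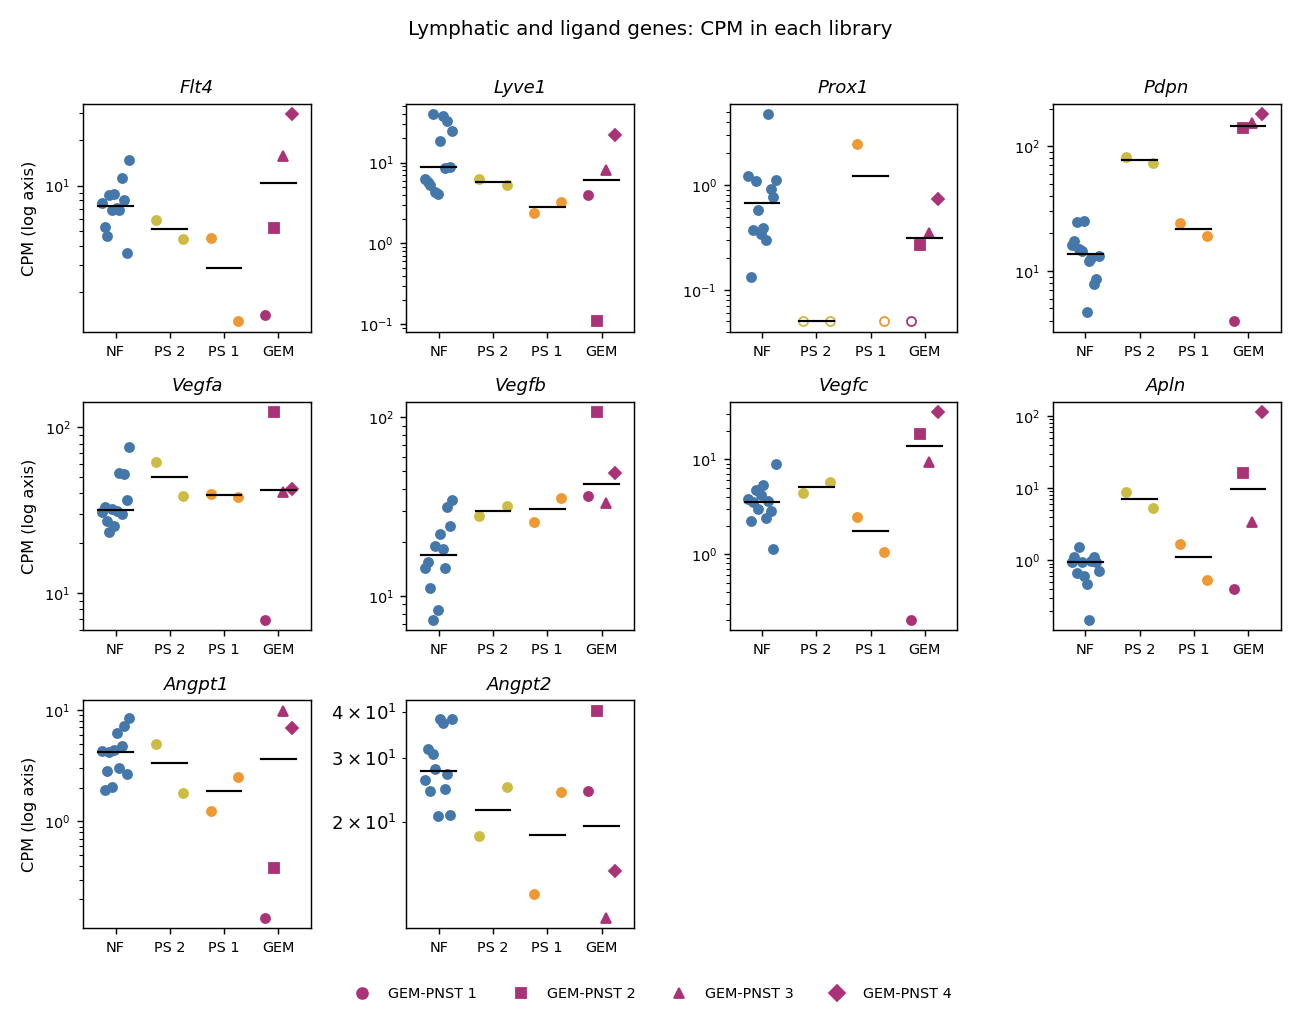
CPM of the 4 lymphatic and 6 ligand genes on a log axis, 1 point per library, by group as NF, PS 2, PS 1 and GEM (neurofibroma, paraspinal subgroups 2 and 1, GEM-PNST); black bars are medians, and open symbols at the axis floor are libraries with 0 counts, and the symbol tells the GEM-PNST library. GEM-PNST library 1 is the low GEM point of Pdpn (3.93 CPM), Vegfa (6.92 CPM) and Vegfc (0.203 CPM), and Prox1 has 0 counts in 3 of the 4 paraspinal libraries.

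Between GEM-PNST and paraspinal libraries, the largest values were those of Apln (log2 fold change 2.99 ± 1.5, edgeR adjusted p = 0.196), Vegfc (2.11 ± 1.10, adjusted p = 0.21), Notch4 (1.87 ± 0.87, adjusted p = 0.17) and Flt4 (1.67 ± 0.87, adjusted p = 0.211). All 6 ligands were above 0, with a median of 0.80, and the 25 blood vessel genes had a median of 0.19. With all 20 libraries in 1 fit edgeR called Apln (3.53, adjusted p = 0.0104), Notch4 (2.15, adjusted p = 0.02), Vegfc (2.30, adjusted p = 0.0281) and Flt4 (1.73, adjusted p = 0.0356) higher in GEM-PNST. In that fit 42.8% of all genes were called. Vegfc was called without GEM-PNST library 1 (2.52, adjusted p = 0.0499), and Fli1 was called higher without GEM-PNST library 2.

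Members were also set against other vessel transcripts of the same library. Each was expressed as its log2 CPM minus a mean log2 CPM. That mean was of Pecam1, Cdh5, Tie1, Esam, Robo4 and Mmrn2, leaving a gene out of its own reference. Of these 6, edgeR called Tie1 and Esam higher in both comparisons with neurofibroma (1.70 and 1.36 in paraspinal tumors, 2.11 and 1.80 in GEM-PNST). That by itself lowers other members relative to this reference, and the relative values of the 6 genes depend on each other. No p is given, because the reference is made of members. Kdr then lay between -1.87 and -1.64 in all 4 GEM-PNST libraries. The mean log2 CPM of the 6 reference genes spanned 2.83 to 6.16 there. In paraspinal libraries Kdr lay between -1.60 and 0.14, and in neurofibroma between -0.19 and 0.72. GEM-PNST thus lay below neurofibroma, and only just below the lowest paraspinal library (-1.64 against -1.60). Esam raised the reference of GEM-PNST library 1, so the narrow Kdr range depends in part on it. Relative to the other reference genes, Esam was at 2.61 in that library and at -0.12 to 0.19 in libraries 2 to 4. Values without Esam in the reference were not computed. Icam2 lay between -1.58 and -1.27 in GEM-PNST, above paraspinal (-3.51 to -2.04) and neurofibroma libraries (-3.47 to -1.75). Flt4 was lowest in paraspinal tumors (-3.32 to -2.61), below GEM-PNST (-2.20 to -0.71) and neurofibroma (-1.73 to -0.59).

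On this relative scale 3 members separated GEM-PNST from paraspinal libraries (Icam2 and Flt4 higher, Kdr lower), where 10.4% of all genes did (2.6% higher and 7.75% lower), near the share of the 35. Between paraspinal and neurofibroma 7 members did (12.1% of all genes, 3.04% higher and 9.01% lower), with Tie1 and Esam higher and Cdh5, Flt1, Tek, Fli1 and Flt4 lower. Between GEM-PNST and neurofibroma 10 did (15.9% of all genes, 2.7% higher and 13.2% lower): Tie1, Eng, Esam, Egfl7, Plvap and Icam2 higher, and Cdh5, Kdr, Tek and Erg lower. Tek lay between -3.72 and -1.76 in GEM-PNST and between -0.28 and 0.66 in neurofibroma, and Plvap between 1.02 and 2.62 in GEM-PNST and between -3.39 and -0.94 in neurofibroma. With the mean of all 25 blood vessel genes as the reference, the counts were 2, 7 and 8. Flt4 in the first comparison, Cdh5 in the second and Cdh5 and Tie1 in the third then no longer separated the stages, and Cldn5 in the second did.

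**Figure D5:**
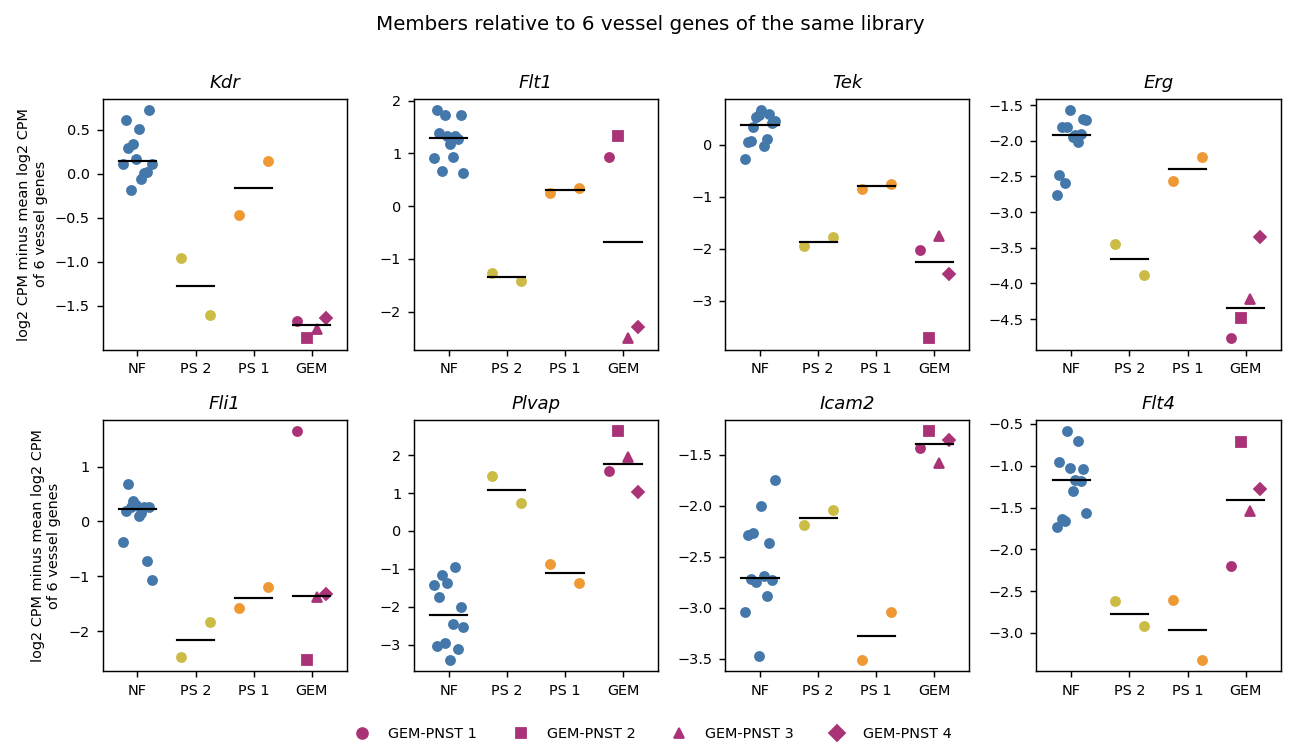
Each point is a library's log2 CPM of a member minus the mean log2 CPM of 6 vessel reference genes, by group as NF, PS 2, PS 1 and GEM (neurofibroma, paraspinal subgroups 2 and 1, GEM-PNST); black bars are medians and the symbol tells the GEM-PNST library. Kdr lies from -1.87 to -1.64 in GEM-PNST, below neurofibroma at -0.19 to 0.72, and Plvap lies from 1.02 to 2.62 in GEM-PNST.

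Other genes of the same biology were counted from lists, beside the 73.3%, 59.5% and 10.9% of all genes called in GEM-PNST against neurofibroma, paraspinal against neurofibroma and GEM-PNST against paraspinal. Of 19 further endothelial genes, edgeR called 8 higher and 4 lower in GEM-PNST against neurofibroma, and 4 and 4 in paraspinal against neurofibroma. Bcl6b, an endothelial transcriptional repressor, rose in both (log2 fold change 5.0 and 1.76), and Cyyr1 fell in both (-4.27 and -1.96), as did Ptprb, an endothelial phosphatase that acts on Tek and Cdh5 (-2.52 and -1.97). Gpihbp1, which holds lipoprotein lipase on capillaries, was the 1 gene of this list called in GEM-PNST against paraspinal (3.67 ± 0.94).

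Of 19 arterial, venous and tip cell genes, 8 were higher and 7 lower in GEM-PNST against neurofibroma, and 6 and 2 in paraspinal against neurofibroma. Pgf, a VEGF family ligand of Flt1, rose by 5.19 in GEM-PNST and by 1.11 in paraspinal tumors, and Cxcr4, a chemokine receptor of tip cells and leukocytes, by 3.75 and 1.43. Between GEM-PNST and paraspinal libraries Vcam1, an adhesion molecule of activated endothelium, rose by 3.08 and Ackr1, a chemokine receptor of venules, fell by 2.55. Of 21 genes of VEGF, angiopoietin and Notch signaling, 9 were higher and 4 lower in GEM-PNST and 5 and 3 in paraspinal against neurofibroma, with Pdgfb, the growth factor that recruits pericytes, up by 2.96 and 2.21. Acvrl1, an endothelial BMP receptor that pairs with Eng, rose by 2.86 and 1.83. In GEM-PNST against paraspinal the 1 gene called on this list was Notch1, which fell by 1.53.

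Rgs5 was set beside other markers of pericytes and vascular smooth muscle. Of 15 such mural cell genes, edgeR called 7 higher and 0 lower in GEM-PNST against neurofibroma, and 7 higher and 1 lower in paraspinal against neurofibroma. Ndufa4l2 rose by 5.21 and 2.71 and Tagln, an actin-binding protein of smooth muscle and myofibroblasts, by 3.35 and 3.07. In GEM-PNST against paraspinal 0 were higher and 2 lower. Of 15 hypoxia response genes 8 were higher and 1 lower in GEM-PNST and 5 and 4 in paraspinal against neurofibroma. Adm, a vasodilator peptide, was up by 4.18 and 2.01. The list was uneven within GEM-PNST, summing to 2996, 3584, 867.1 and 1188 CPM in libraries 1 to 4. Neurofibroma libraries had 1248 to 2456 CPM. Its mean log2 CPM was 5.77, 7.07, 4.51 and 4.92 in GEM-PNST and 4.37 to 4.97 in neurofibroma, so libraries 3 and 4 were not above neurofibroma. In GEM-PNST against paraspinal Car9, a carbonic anhydrase induced by hypoxia, rose by 4.67 and Ndrg1 fell by 2.87. Of 10 further lymphatic genes, 3 were higher and 3 lower in GEM-PNST and 4 and 1 in paraspinal against neurofibroma, and between GEM-PNST and paraspinal libraries 0 were higher and 1 lower.

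Markers of red cells, platelets, leukocytes and macrophages were also read. None of the 3 tested red cell markers was called by edgeR in any comparison, none of them with an unadjusted p under 0.05. Of 10 hemoglobin rows, 8 had 0 counts in every library. The red cell marker Alas2 had counts in every library, with 114.4 CPM at most (neurofibroma library 10) and 0.9453 CPM at least (GEM-PNST library 3). Slc4a1, another of the 3, peaked at 28.08 CPM in the same neurofibroma library. Why the hemoglobin rows held 0 counts was not tested. Of 13 leukocyte and macrophage markers, 8 were higher and 0 lower in GEM-PNST against neurofibroma and 5 and 1 in paraspinal against neurofibroma. For 6 tested platelet markers these counts were 2 and 2 in GEM-PNST and 2 and 1 in paraspinal against neurofibroma. Pecam1, Fli1, Icam2 and, in some macrophages, Lyve1 are also made by leukocytes, and the part of leukocytes in their values was not tested.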

How the data were processed

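Total RNA (RNeasy Plus Micro Kit) was made into Nextera XT libraries, per the labels' protocols. The authors deposited raw read counts for each gene. The submitters' processing notes name TopHat, HISAT2, featureCounts and mm10, without versions or roles, and the annotation and strand setting are not given in the sources used here.

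Group and run of each library come from the labels and a deposited table of the authors that pairs sample names with alignment files (its codes were used as names, with no other unit). TMM factors were computed over all 20 libraries on 16589 genes kept by edgeR's expression filter, with 95.78% to 99.97% of the counts in each library. Every comparison was fitted on its own libraries with edgeR 4.0.16 (R 4.3.3) by quasi-likelihood F tests, with Benjamini-Hochberg adjustment and a threshold of 0.05. The subgroup fit shared its spread with the GEM-PNST libraries. Standard errors come from the log2 fold change and its F value, log2 CPM use a prior count of 2, and the tests were tried on simulated data. Gene length, GC content and positions come from GENCODE on GRCm38, whose coordinates mm10 shares. The 78 within-stage library pairs all differed beyond sampling noise (chi-square per degree of freedom at least 23.86). Nothing says the libraries came from separate animals, and some codes share a number. These are the codes of neurofibroma libraries 8 and 9, and those of GEM-PNST library 2 and the first library of paraspinal subgroup 1 (across a comparison). The codes of GEM-PNST libraries 1 and 4 share one in part, and those of both libraries of paraspinal subgroup 2 start with the same digit. What the numbers stand for is not given, so p-values measure the spread between samples. Counting floors cover counting error only.

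The members, lists and tests were chosen with earlier results of these data known. Values in every library are given for Pecam1, Cdh5, Kdr, the lymphatic and ligand genes and, per comparison and role, up to 4 further called members with the largest change. Other lists name up to 3 called genes each with the largest change. Alternatives were DESeq2 1.42.0, limma-voom with sample weights (limma 3.58.1), RLE factors, a filter of 1 CPM in 4 libraries or none, all 20 libraries in 1 fit, the replicate number as a block, each paraspinal subgroup or neurofibroma run alone, and single paraspinal or GEM-PNST libraries left out. Added after seeing the data were each neurofibroma library left out, factors from the libraries compared, and a length and GC trend removed.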

Additional observations from a re-analysis of the deposited data

Results flagged for a closer look

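Over the 35 genes, 70 groups of 4 libraries (paraspinal and GEM-PNST for each gene) were screened for a library far from the other 3, and chance alone gives about 1 in 20. In 5 of them a library stood apart. In paraspinal libraries, Dll4 was lowest in library 2 of subgroup 1 (4.742 CPM, with the nearest library at 8.712 CPM). Prox1 was highest in library 1 of subgroup 1 (2.441 CPM, with 0 counts in the other 3). Vegfa was highest in library 1 of subgroup 2 (62.3 CPM, with the nearest at 39.68 CPM). In GEM-PNST libraries, Fli1 was lowest in library 2 (1.407 CPM, with the nearest at 17.51 CPM), and Pdpn was lowest in library 1 (3.933 CPM, with the nearest at 138.7 CPM).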

How the results depend on the processing

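In GEM-PNST against paraspinal, 4 members were called with all 20 libraries in 1 fit (Notch4, Flt4, Vegfc and Apln higher), where 42.8% of all genes were. The replicate number as a block gave 3 (Kdr, Tek and Sox17 lower), where 5.77% of all genes were called. No member was called under the other settings run on all libraries or with 1 subgroup, and 0 to 1 when libraries were left out in turn. In paraspinal against neurofibroma, 17 members were called, against 10 with all 20 libraries in 1 fit, 2 with the replicate block, 8 with the length and GC trend removed, 4 with subgroup 1 alone, and 14 to 20 when libraries were left out in turn. The shares of all genes called were, in the same order, 59.5%, 53.9%, 17.8%, 48%, 44.9%, and 52.9% to 61.3%. In GEM-PNST against neurofibroma 18 were called, against 4 with the replicate block, 10 with the trend removed, 11 against neurofibroma run B alone, and 14 to 19 when libraries were left out. Of all genes 73.3%, 44.7%, 69%, 64.8%, and 71.4% to 73.4% were called under these settings. Between the subgroups 0 were called by edgeR and 7 by limma-voom, where 0% and 32.6% of all genes were. Same-numbered libraries did not deviate together (correlations from -0.259 to 0.168), so the number is not taken as a pairing. RLE factors moved the median log2 fold change of all genes to -0.18 from -0.01 in paraspinal and to -0.29 from -0.12 in GEM-PNST against neurofibroma. Of 1399 values of single genes under other settings, 1239 kept direction and side of the threshold, 120 lost the call, 19 gained it and 21 changed sign. In GEM-PNST against paraspinal the block gave Pecam1 -1.79, Cdh5 -2.46 and Flt4 -0.27, and leaving out libraries gave Pecam1 -0.26 to 0.84 and Cdh5 -0.75 to 0.57. In paraspinal against neurofibroma Pecam1 was -0.05 with RLE factors, -0.02 against run B alone, -0.47 with subgroup 1 alone and -0.04 to 0.44 when libraries were left out, and Vegfa was -0.06 against run B alone. With the trend removed Kdr was 0.03, Eng -0.13 and Vegfb -1.02 in paraspinal, and Sox18 -0.02 and Vegfb -0.24 in GEM-PNST against neurofibroma. There, leaving out libraries gave Cdh5 -1.21 to 0.11, Vegfa -0.32 to 0.87 and Pecam1 -0.12 to 0.98. The cause of these changes was not tested. With 4 libraries or fewer per later stage, and GEM-PNST libraries unlike each other, differences as small as the standard errors given were not detectable.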
